A study of Mus musculus with 12 samples.

Results

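The sequences knocked into the tumor cells and the endogenous cytokine gene Ifng were examined in tumors under light control. They make up 4 of the 32288 rows counted in each library. The knock-in rows, 3 in number, are named as deposited, GAVPO_bla, mINFg_mCXCL10_hGulc and mRuby3_luciferase, and hold the RNA of the introduced plasmids. The other row is Ifng of the mouse genome. The rows were chosen by name and by what they encode, not by their level.

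Interferon gamma (IFNG) is the cytokine that T cells and NK cells release to activate macrophages and to raise antigen presentation in neighbouring cells. It acts through the receptor chains IFNGR1 and IFNGR2 and the kinases JAK1 and JAK2. CXCL10 is a chemokine that attracts T cells and NK cells carrying the receptor CXCR3, and its gene is itself induced by IFNG. In the light-controlled system the transactivator GAVPO joins the DNA-binding domain of yeast GAL4, the light-sensing domain VVD and the activation domain of p65, a subunit of NF-κB. Under blue light GAVPO pairs with a second GAVPO molecule and binds the GAL4 sites of a UAS promoter, which then drives the gene behind it.

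Tumors were grown from P815, a mastocytoma (mast cell tumor) line of DBA/2 mice, injected subcutaneously into adult DBA/2 mice of both sexes, with 1 tumor per mouse. P815-IFNG cells carry 3 PiggyBac plasmids. GAVPO_bla is the transactivator joined to the blasticidin resistance gene Bla under the constitutive EF-1α promoter. mINFg_mCXCL10_hGulc, called the cytokine cassette here, is murine Ifng, Cxcl10 and the humanized Gaussia luciferase hGluc in a row behind the UAS promoter. mRuby3_luciferase, called the reporter, is the red fluorescent protein mRuby3 joined to firefly luciferase under EF-1α. P815-M control cells carry the reporter plasmid only, so that all 4 groups share it. Each line was 1 single-cell clone, and P815-IFNG was picked for its hGluc activity, so that a difference between the lines cannot be told apart from a difference between 2 clones. Mice were assigned to groups 7 days after injection. The light groups then received blue light for 12 h per day over 6 days according to the sample labels, and the dark groups received none. Each of the 4 groups (P815-IFNG light, P815-IFNG dark, P815-M light and P815-M dark) had 3 mice, with 1 library per mouse.

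In 10 libraries the total was 2211234 to 2946792 counts, and replicate 3 of both P815-IFNG groups held 41473500 and 42338096 counts. These 2 deep libraries stood apart in more than depth. Their mitochondrial counts held 3.56% and 3.85% of mt-Nd6 against 29.0% to 47.9% in the other libraries. The summed level of the 9 mast cell markers that passed the count minimum was 10150 and 7823 CPM against 1757 to 2671 CPM. The kit was stranded and HTSeq counts 1 strand by default, and whether the 2 matched in every library is not given in the sources used here. mt-Nd6 lies opposite the other mitochondrial genes. In the same way, 530 genes with at least 100 exon bases opposite a gene of 100 CPM or more in the deep libraries had a median log2 level 3.28 higher in the shallow than in the deep libraries, against -0.37 for 13952 genes with nothing opposite. The doubt about the strand therefore touches every row. The shallow counts of the knock-in rows and of Ifng may rest on reads of the strand opposite to the transcript, and shallow and deep levels have no settled common scale. The main values of the 4 rows are therefore given with and without them. CPM are counts scaled by edgeR to a common library size with TMM factors, and 3 counts, taken as the detection floor, correspond to 0.0670 to 1.56 CPM. Intervals are exact 95% intervals that cover counting error only. Among the mast cell markers Kit, Cpa3, Gata2, Cma1 and Mcpt4 had counts above 0 in every library, whereas Fcer1a was at 0 in 10 of 12. Ms4a2 and Tpsab1 were also at 0 in several libraries. Tpsb2 was at 0 in P815-IFNG light replicate 2 and Hdc in P815-M dark replicate 3.

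Ifng lies on chromosome 10 from 118441046 to 118445892, on the plus strand, with 4 exons (GRCm38, GENCODE release M21). Cxcl10, the second cytokine of the cassette, lies on chromosome 5 from 92346638 to 92348889 on the minus strand, with 3 exons. Of the 1208 transcript bases of Ifng 468 (38.74%) are coding, and of the 1353 bases of Cxcl10 282 (20.84%) are. Reads from these coding parts can match both the gene and the cassette, and whether the cassette keeps the mouse codons is not given in the sources used here. The counts of Ifng, Cxcl10 and the cassette are therefore uncertain where they share sequence. The reads of the cassette that fall in hGluc have no counterpart in the mouse genome.

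The promoters of the endogenous genes are shown because they contrast with the UAS promoter of the cassette. They were taken from RefSeq (GRCm38.p6) as the 250 bases before the start of each gene, 5′ to 3′ on the strand of the gene. The Ifng window is chr10:118440796-118441045, and capitals mark a GAS match (the element bound by STAT dimers) and a TATA box.
Ifng: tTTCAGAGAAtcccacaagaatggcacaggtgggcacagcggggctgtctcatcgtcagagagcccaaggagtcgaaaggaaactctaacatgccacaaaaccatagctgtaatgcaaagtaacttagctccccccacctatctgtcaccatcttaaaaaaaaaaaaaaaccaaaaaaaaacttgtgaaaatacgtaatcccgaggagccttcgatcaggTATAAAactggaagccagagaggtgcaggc
The Cxcl10 window is chr5:92348890-92349139, and capitals mark a match to the core of the interferon-stimulated response element (ISRE).
Cxcl10: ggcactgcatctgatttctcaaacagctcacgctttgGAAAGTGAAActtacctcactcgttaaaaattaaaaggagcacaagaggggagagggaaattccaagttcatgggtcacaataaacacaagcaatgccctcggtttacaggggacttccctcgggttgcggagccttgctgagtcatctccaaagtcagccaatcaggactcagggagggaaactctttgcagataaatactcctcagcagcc
Both strands were searched for a GAL4 site (CGG and CCG with 11 free bases between them), the ISRE core (GAAA and GAAA with 2 free bases between them), GAS (TTCNNNGAA) and TATAAA. The Ifng window held TTCAGAGAA at 249 to 241 bases before the start and TATAAA at 30 to 25 bases. The Cxcl10 window held GAAAGTGAAA at 213 to 204 bases before the start. Neither window held the letters of the GAL4 site, which 7.22% of 32851 promoter windows of this length held. The ISRE core was in 2.98%, GAS in 7.02% and TATAAA in 12.4% of them. A match describes the letters only.

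The first question was whether the transactivator was transcribed in the engineered tumors under both light conditions. GAVPO_bla had 454, 507 and 1338 CPM (1129, 1040 and 57786 counts) in the 3 P815-IFNG light libraries. In the P815-IFNG dark libraries it had 392, 509 and 1784 CPM (1264, 1520 and 79894 counts). In P815-M tumors there were 0, 0 and 2 counts in light and 2, 0 and 4 counts in the dark. The last value of each P815-IFNG group is the deep library, and it was the highest of its group. No P815-M library came near the P815-IFNG range. The P815-M counts lie at or about the floor and were not traced to a source.

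GAVPO_bla was called higher in P815-IFNG than in P815-M tumors in light (adjusted p = 0.0237, edgeR quasi-likelihood test) and in the dark (adjusted p = 0.0474). Since P815-M cells do not carry this plasmid, the direction was fixed by the constructs, and the comparison only checks them. A call required an adjusted p no higher than 0.05 and a log2 fold change of 1 or more in size. Only 0.016% of the 18804 genes tested were called in light and 0.0106% in the dark. In summed counts per effective library size, the level in light was 3925-fold (interval 1087 to 32415) that of P815-M over all libraries and 1495-fold (413 to 12349) without the deep ones, from 2169 against 2 counts. Both P815-M counts came from light replicate 3, and without it the P815-M sum was 0 and the lower limit of the interval 1367 over all libraries and 520 without the deep ones. In the dark it was 1867-fold (858 to 5089) over all libraries and 517-fold (237 to 1409) without the deep ones, from 2784 against 6 counts. Without P815-M dark replicate 3, which held 4 of the 6, these became 3633-fold and 1005-fold. The size of the ratio thus rests on a few P815-M counts. A tumor is a mixture, so that fewer engineered cells and less RNA per cell cannot be told apart in these values or in those below. Fitted without the deep libraries the adjusted p was 3.61e-09 in light and 4.76e-09 in the dark. Both calls were lost when only the libraries compared were fitted (adjusted p = 0.193 and 0.242). The call in light was also lost without P815-IFNG light replicate 1 and without each P815-M light library, and the call in the dark without P815-IFNG dark replicate 1 or 2 and without each P815-M dark library, with log2 fold changes that stayed at 9.02 or above.

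No difference in the transactivator between light and dark was detectable. GAVPO_bla averaged 766 ± 495 CPM (SD, n = 3) in P815-IFNG light and 895 ± 772 CPM in P815-IFNG dark tumors, and the groups overlapped. The log2 fold change was -0.22 (SE 0.81, adjusted p = 1, edgeR), and an exact permutation test gave p = 0.8. Without the deep libraries it was 0.08 (SE 0.27), with 481 ± 37.8 CPM in light and 451 ± 82.8 CPM in the dark (SD, n = 2). The direction thus turned with the 2 deep libraries. Of all genes tested 0% were called between P815-IFNG light and dark, where 409 genes had an unadjusted p under 0.05 and DESeq2 called 4.

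The second question was whether the cytokine cassette followed the light. mINFg_mCXCL10_hGulc had 4.42, 2.93 and 5.28 CPM (11, 6 and 228 counts) in P815-IFNG light tumors. It had 2.79, 2.01 and 2.81 CPM (9, 6 and 126 counts) in P815-IFNG dark tumors. Every light library lay above every dark library, but the lowest light value (2.93 CPM) was close to the highest dark value (2.81 CPM). In P815-M tumors the row had 0 counts in 5 of 6 libraries and 2 counts in dark replicate 1.

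The light group averaged 4.21 ± 1.19 CPM and the dark group 2.54 ± 0.458 CPM (SD, n = 3), and the fitted log2 fold change was 0.74 (SE 0.82). This did not pass the test (adjusted p = 1, edgeR), and the exact permutation test gave p = 0.1, the smallest that 3 against 3 allows. Groups that did not overlap, with the higher values in light, occurred in 0.994% of the 18804 genes. Leaving out each of the 6 libraries in turn gave 0.57 to 0.93, and leaving out both deep libraries gave 0.60 (SE 0.97). In the 4 shallow libraries the values rested on 6 to 11 counts. Their intervals, 2.21 to 7.92 and 1.07 to 6.37 CPM in light and 1.28 to 5.30 and 0.738 to 4.38 CPM in the dark, overlapped.

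The deep pair gave the cassette with less counting error, although with 1 library per condition it compares 2 tumors and not the conditions. The cassette had 5.28 CPM (interval 4.61 to 6.01) in the deep light library and 2.81 CPM (2.34 to 3.35) in the deep dark library. The light level was 1.88 times the dark level (1.50 to 2.35). In the same pair GAVPO_bla in light was 0.750 times its dark level and the reporter 0.721 times.

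Between the lines the cassette was detected in each P815-IFNG library. P815-M cells do not carry its plasmid, so that here too the direction was fixed by the constructs. In light there were 245 counts against 0 in P815-M, and the lower limit of the 95% interval of the ratio was 8.63. Without the deep libraries there were 17 counts against 0, with a lower limit of 5.69. In the dark the ratio was 9.55 (interval 2.60 to 79.7) over all libraries, and 8.35 (1.94 to 75.3) without the deep ones, from 15 against 2 counts. Both of these P815-M counts came from dark replicate 1, and without it the lower limit was 3.22 over all libraries and 2.51 without the deep ones. All P815-IFNG libraries lay above all P815-M libraries in both conditions, as did 9.23% of genes in light and 10.9% in the dark. The row was not called in either comparison (adjusted p = 0.629 and 0.604, edgeR). In light it was called by DESeq2 (adjusted p = 0.0135), with the deep libraries as a batch term (0.0448) and after ComBat-seq (0.0132).

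**Figure D1:**
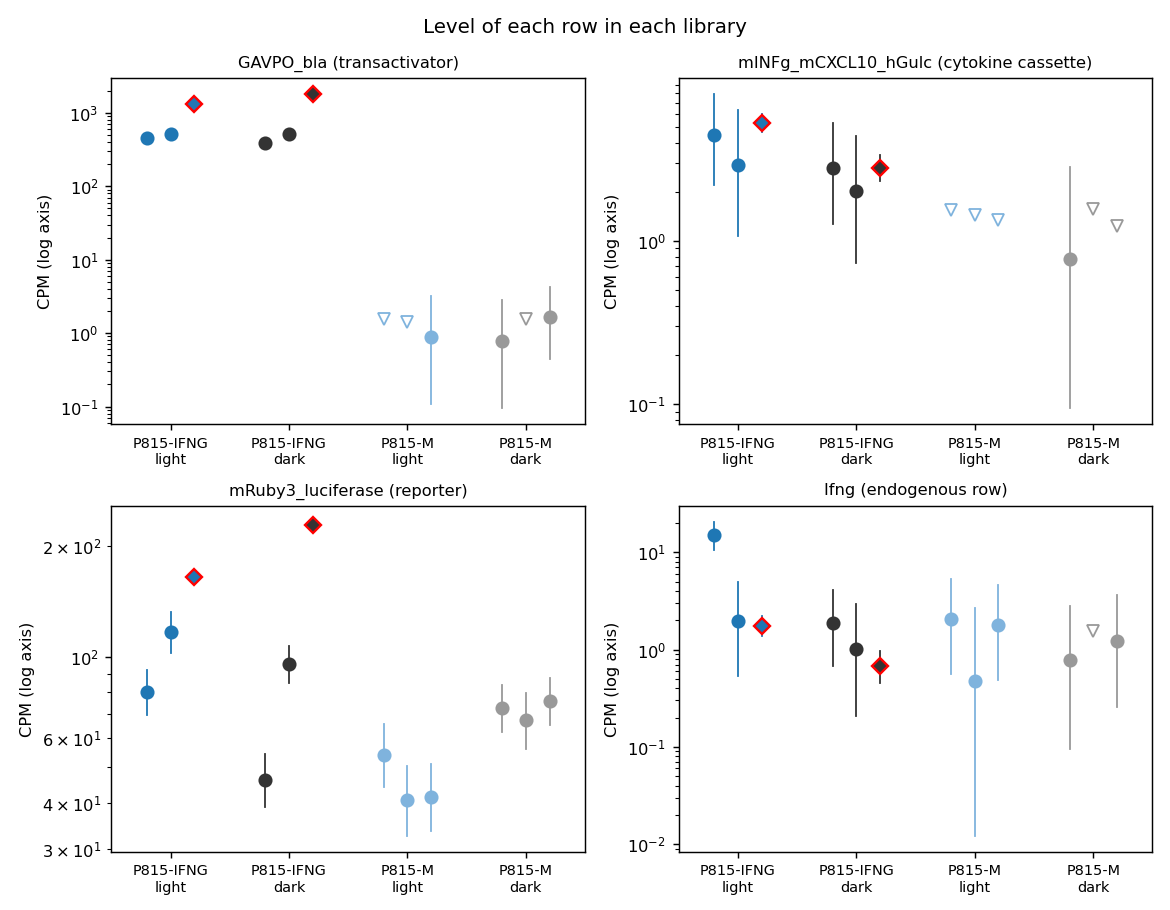
Level of the 4 rows in each library in CPM on a log axis, by group, with the 3 libraries of a group side by side in the order of their replicate numbers. Points carry exact 95% counting intervals, diamonds with a red edge are the 2 deep libraries, and open triangles stand at the floor of 3 counts for libraries with 0 counts. For GAVPO_bla and the cassette all P815-IFNG libraries lie above all P815-M libraries, as for 9.23% of genes in light and 10.9% in the dark. The cassette was not called between the lines by edgeR over all libraries, and some of its counting intervals overlap between them. The reporter is present in all 12 libraries, and Ifng is highest in P815-IFNG light replicate 1 at 14.9 CPM.

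The reporter was the row that both lines carry. mRuby3_luciferase had 80.0, 117 and 165 CPM (199, 239 and 7113 counts) in P815-IFNG light and 46.2, 95.5 and 228 CPM (149, 285 and 10229 counts) in P815-IFNG dark tumors. In P815-M it had 54.0, 40.7 and 41.6 CPM (104, 85 and 93 counts) in light and 72.6, 67.2 and 75.7 CPM (186, 129 and 184 counts) in the dark. The values of P815-IFNG spread widely within each group, with the deep library highest, whereas those of P815-M lay close together. In order of the mean, P815-IFNG dark had 123 ± 94.2 CPM, P815-IFNG light 120 ± 42.4 CPM, P815-M dark 71.8 ± 4.31 CPM and P815-M light 45.4 ± 7.43 CPM (SD, n = 3). The range of P815-IFNG light lay within that of P815-IFNG dark, and P815-M light lay below P815-M dark in every library.

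In P815-IFNG tumors the reporter did not differ between light and dark beyond the spread (log2 fold change -0.04, SE 0.49, adjusted p = 1, edgeR). Without the deep libraries the value was 0.46 (SE 0.29), in the other direction. In P815-M tumors it was -0.66 (SE 0.49, adjusted p = 1), and without the deep libraries -0.68 (SE 0.25, adjusted p = 0.217). The P815-M groups did not overlap (exact permutation p = 0.1, the smallest possible), as was the case, with lower values in light, for 8.06% of genes. No gene (0%) was called between P815-M light and dark, where 510 genes had an unadjusted p under 0.05 and DESeq2 called 1. Fitted without the deep libraries 157 genes were called, and the reporter was not among them.

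Between the lines the reporter had a log2 fold change of 1.41 (SE 0.50) in light and 0.78 (SE 0.49) in the dark, and neither was called (adjusted p = 0.629 and 0.604, edgeR). The median of all genes was 0.15 and 0.33 in these comparisons, and 0.03 and 0.14 with DESeq2. Without the deep libraries the reporter gave 1.12 (SE 0.27, adjusted p = 0.105) in light and -0.02 (SE 0.26) in the dark. In light the groups did not overlap, as was the case, with higher values in P815-IFNG, for 9.23% of genes. In the dark P815-IFNG replicate 1 lay below all P815-M libraries. The interaction of line and light was 0.63 (SE 0.69, adjusted p = 1.00) over all libraries and 1.14 (SE 0.38, adjusted p = 0.538) without the deep ones. For the interaction 0% of genes were called, with 313 at an unadjusted p under 0.05 and 4 called by DESeq2.

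**Figure D2:**
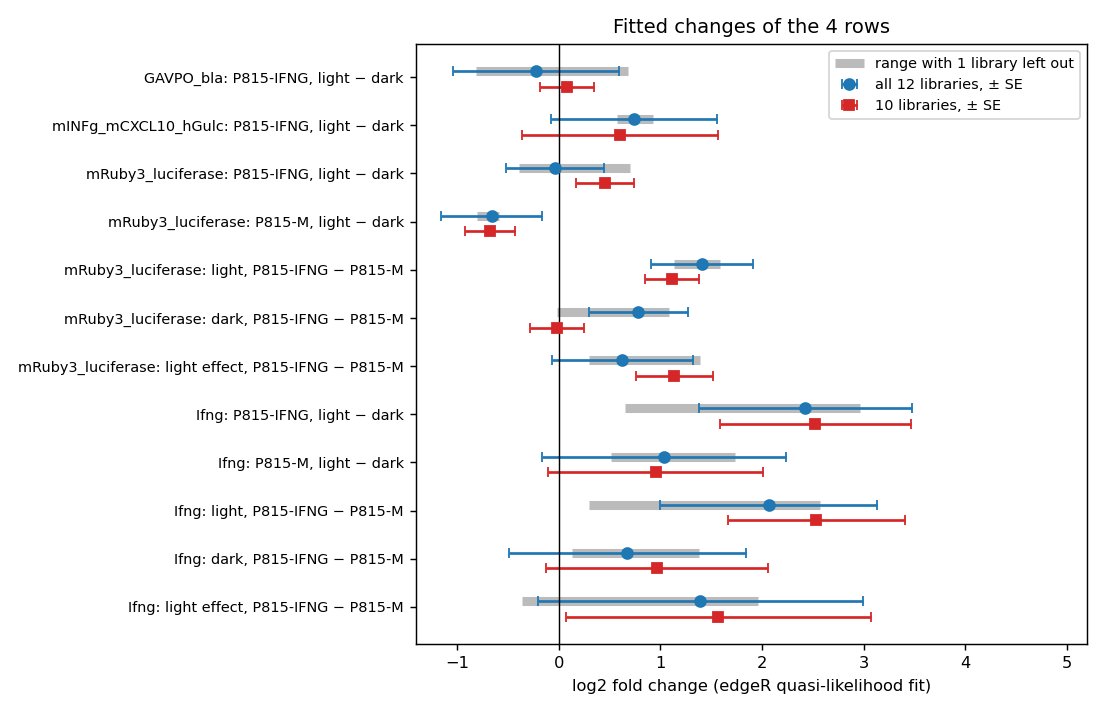
Log2 fold changes from edgeR for GAVPO_bla and the cassette between P815-IFNG light and dark, and for the reporter and Ifng in every comparison. Ifng had 0 to 3 counts in the P815-M dark libraries, at or below the floor. Blue circles with SE are the fit to all 12 libraries, gray bands the range with 1 library left out, and red squares with SE the fit to the 10 shallow libraries. The band of the cassette stays above 0 (0.57 to 0.93), those of GAVPO_bla and the reporter in P815-IFNG cross 0, and the band of Ifng in P815-IFNG runs from 0.65 to 2.96.

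Ratios between the rows of 1 library do not depend on library size. Because the lengths of the knock-in rows are not known, these ratios of counts compare libraries and say nothing of the molecules of one row per molecule of another. For the pair of constitutive rows, GAVPO_bla counts per reporter count were 5.67, 4.35 and 8.12 in P815-IFNG light and 8.48, 5.33 and 7.81 in P815-IFNG dark tumors. The counting intervals of several libraries did not meet, for example 3.78 to 5.03 in light replicate 2 and 7.15 to 10.1 in dark replicate 1, although both rows come from the same clone. Light and dark overlapped (log2 difference -0.27, exact permutation p = 0.6, adjusted p = 0.6 over 8 ratio comparisons), also without the deep libraries (-0.44). In P815-M the ratio was between 0 and 0.0217 in all 6 libraries. The log2 difference between the lines was 9.33 in light and 9.35 in the dark with a pseudocount of 0.5 (exact permutation p = 0.1, adjusted p = 0.267 for each), and 9.09 and 9.28 without the deep libraries. With a pseudocount of 1 it was 8.58 and 8.88, so that its size depends on the pseudocount, the P815-M libraries having 0 to 4 GAVPO_bla counts. Its direction was fixed by the constructs.

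The cassette per transactivator was the ratio of the light-driven row to the row that drives it. There were 9.74, 5.77 and 3.95 cassette counts per 1000 GAVPO_bla counts in P815-IFNG light and 7.12, 3.95 and 1.58 in P815-IFNG dark tumors. The groups overlapped, and in both the deep library was lowest. The log2 difference was 0.77 (SD 0.68 in light and 1.14 in the dark, n = 3 each, exact permutation p = 0.5, adjusted p = 0.571). It was 0.49 without the deep libraries and 0.16 to 1.28 with 1 library left out. Same-numbered libraries each had the higher ratio in light. Paired by number the exact permutation p was 0.25, the smallest that 3 pairs allow.

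Per 1000 reporter counts there were 55.3, 25.1 and 32.1 cassette counts in light and 60.4, 21.1 and 12.3 in the dark. Here dark replicate 1 was the highest of all. The log2 difference of 0.50 (exact permutation p = 0.5, adjusted p = 0.571) came to 0.06 without the deep libraries and -0.04 without the deep dark library alone, so that it rested on that library. In the deep pair, light over dark was 2.50 (interval 2.00 to 3.14) for the cassette per GAVPO_bla and 2.60 (2.08 to 3.27) for the cassette per reporter, while GAVPO_bla per reporter was 1.04 (1.01 to 1.07). In the 5 P815-M libraries with 0 cassette counts, the upper bound was 20.3 to 44.4 cassette counts per 1000 reporter counts. That range covers values measured in P815-IFNG.

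**Figure D3:**
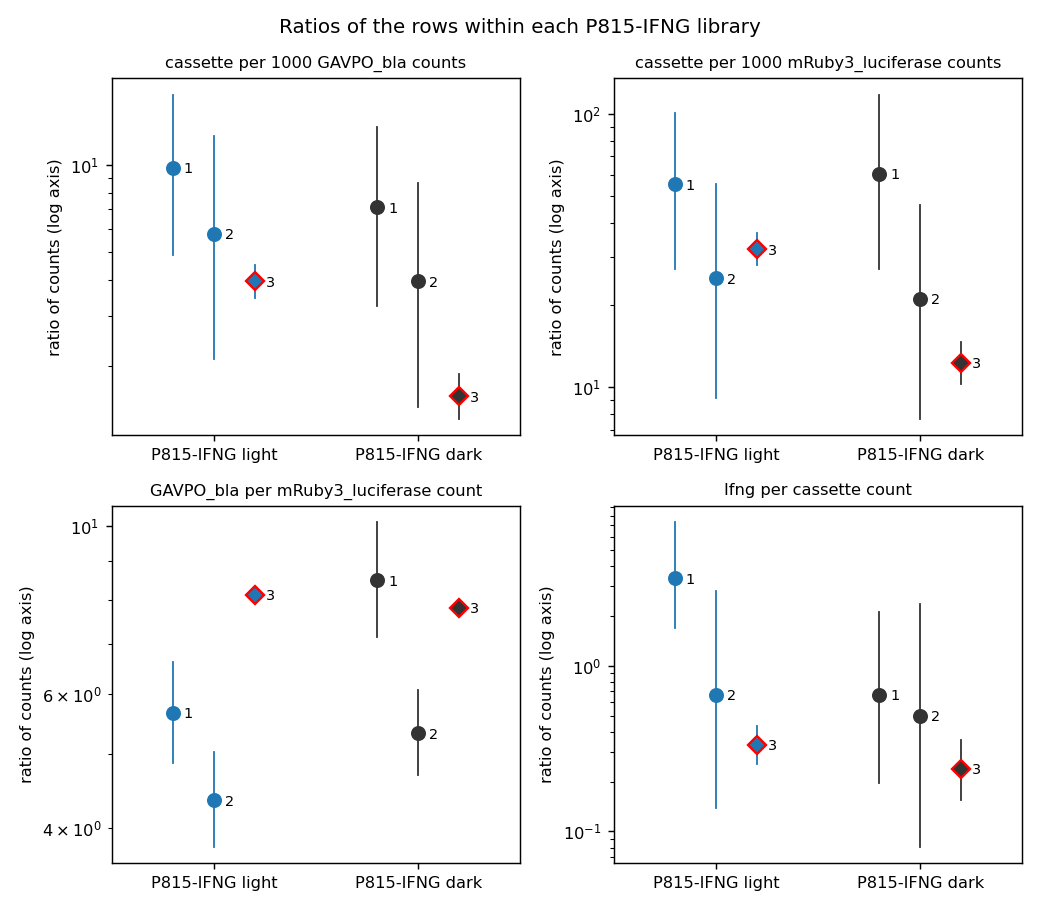
Ratios of counts within each P815-IFNG library on log axes, with exact 95% counting intervals; digits give the replicate number and red-edged diamonds are the deep libraries. Cassette per GAVPO_bla is lowest in the deep library of each condition (3.95 and 1.58 per 1000), and GAVPO_bla per reporter runs from 4.35 to 8.48.

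Endogenous Ifng was low in all tumors but 1. It had 14.9, 1.95 and 1.76 CPM (37, 4 and 76 counts) in P815-IFNG light and 1.86, 1.01 and 0.670 CPM (6, 3 and 30 counts) in P815-IFNG dark tumors. In P815-M it had 2.08, 0.479 and 1.79 CPM (4, 1 and 4 counts) in light and 0.781, 0 and 1.23 CPM (2, 0 and 3 counts) in the dark. Replicate 1 of P815-IFNG light stood above all other libraries, and its interval of 10.5 to 20.5 CPM met none of theirs. The remaining 11 libraries lay at 0 to 2.08 CPM. P815-IFNG light overlapped P815-IFNG dark and P815-M light there. All its libraries lay above those of P815-M dark, which were at or below the floor of 3 counts. Those groups differ in both line and light, and the share of genes with such a gap was not computed. In P815-IFNG the library in light was the higher one in each of the 3 same-numbered pairs.

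In order of the mean, light P815-IFNG tumors had 6.20 ± 7.52 CPM of Ifng, light P815-M tumors 1.45 ± 0.852 CPM, dark P815-IFNG tumors 1.18 ± 0.615 CPM and dark P815-M tumors 0.672 ± 0.624 CPM (SD, n = 3), and no neighbours in that order differed beyond their spread. The log2 fold change between P815-IFNG light and dark was 2.43 (SE 1.05, adjusted p = 1, edgeR) and became 0.65 without light replicate 1. Between P815-M light and dark it was 1.03 (SE 1.2, adjusted p = 1). Between the lines it was 2.06 (SE 1.07) in light, which became 0.30 without the same library, and 0.67 (SE 1.17) in the dark. The interaction of line and light was 1.39 (SE 1.60) and turned to -0.36 without that library. The comparisons with P815-IFNG light share its 3 libraries. Without the deep libraries the 5 values were 2.52 (SE 0.94), 0.95 (SE 1.06), 2.53 (SE 0.87), 0.96 (SE 1.09) and 1.57 (SE 1.5) in the same order, and none was called.

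In the deep pair Ifng had 1.76 CPM (interval 1.39 to 2.2) in light and 0.670 CPM (0.452 to 0.956) in the dark, a ratio of 2.63 (1.70 to 4.15). Per GAVPO_bla count the ratio of light to dark was 3.50 (2.27 to 5.54). Per cassette count it was 1.40, with an interval of 0.853 to 2.34 that includes 1. Over all P815-IFNG libraries Ifng counts per cassette count were 3.36, 0.667 and 0.333 in light and 0.667, 0.5 and 0.238 in the dark. Light replicate 1 was highest, and the other 5 libraries lay between 0.238 and 0.667 with wide intervals in the shallow ones. The log2 difference of 1.03 (exact permutation p = 0.4, adjusted p = 0.571) became 0.11 without light replicate 1 and 1.31 without the deep libraries.

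Cxcl10 had the same outlying library. It had 39.0, 7.32 and 2.45 CPM (97, 15 and 106 counts) in P815-IFNG light, and 5.90, 3.69 and 0.446 CPM (19, 11 and 20 counts) in P815-IFNG dark tumors. In P815-M it had 8.31, 0.479 and 3.58 CPM in light and 4.29, 1.04 and 3.29 CPM in the dark. As for Ifng, light replicate 1 was highest, light was higher in each of the 3 same-numbered P815-IFNG pairs, and the groups without that library overlapped. The log2 fold change between P815-IFNG light and dark was 2.34 (SE 1.19, adjusted p = 1, edgeR), and 0.51 without light replicate 1. Cxcl10 is uncertain because 133 of its exon bases lie opposite Art3. Art3 had 193, 42.9 and 2.08 CPM in light and 27.0, 14.7 and 0.960 CPM in dark P815-IFNG tumors, also with light replicate 1 highest and the deep library lowest. Rela, the mouse gene of p65, had 33.3 to 63.4 CPM over all libraries, and its log2 fold change between P815-IFNG light and dark was -0.05 (SE 0.30, adjusted p = 1).

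The deep libraries shifted the rows by different amounts. In P815-IFNG tumors the 2 deep libraries had 3.35 times the GAVPO_bla level of the 4 shallow ones, 2.32 times the reporter level, 1.32 times the cassette level and 0.262 times the Ifng level. The value for Ifng rested on light replicate 1, without which it was 0.770, whereas the other 3 rows gave 3.32, 2.28 and 1.55. The median over 15223 genes was 1.12. Mast cell markers were higher in the deep libraries as well, at 7823 and 10150 CPM, and the macrophage markers were lower, at 338 and 451 CPM against 740 to 1174 CPM in the shallow P815-IFNG libraries. The part of these differences in the levels above was not tested.

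Genes with the pattern most like each row were sought over the 10 shallow libraries, by Pearson's r of log2 CPM (prior count of 2) among about 15123 genes with at least 1 CPM in at least 5 of them. For GAVPO_bla these were Pex16 (r = 0.98), Gcsam (0.97) and Large2 (0.97). Pex16, a peroxisome assembly gene, averaged 217 and 208 CPM in P815-IFNG light and dark and 8.28 and 8.07 CPM in P815-M light and dark. Pex16 and Large2 share 127 exon bases on opposite strands, so that both are uncertain. Since the 10 libraries fall into 2 clones, these values describe mainly the split between the clones.

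For the cassette the nearest genes were Rpl12 (r = 0.98), Mta2 (0.97) and Poldip3 (0.96), at counts of 0 to 11 for the cassette itself. For the reporter they were Mt1 (0.95), a metallothionein gene, Ikzf2 (0.91) and Usp42 (0.90). For Ifng they were Tnfaip2 (0.95), Nos2 (0.94), the inducible nitric oxide synthase, and Gbp4 (0.94), a guanylate-binding protein of the interferon response. Ikzf2 and Tnfaip2 also have exons opposite another gene and are uncertain for that reason. Nos2 averaged 192 and 53.2 CPM in light and dark P815-IFNG tumors, and 70.7 and 32.1 CPM in light and dark P815-M tumors. Its order of the 4 means, with light of P815-IFNG first and light of P815-M next, was that of Ifng, and its level over the 10 libraries shares their depth. Nos2 was picked for its likeness to Ifng over these same libraries, so that a like order of means is no separate result. Ifng had 14.9 CPM in P815-IFNG light replicate 1 and at most 2.08 CPM in every other shallow library. The r without that replicate was not computed.

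The pathway around Ifng was described by 3 lists. For IFNG-induced genes (18 of 19 listed genes were in the files, among them Irf1, the Gbp genes, Cxcl9 and Nos2), 0 of 18 were called in any comparison. At most 0.016% of all genes were called in any of them, so that a count of 0 does not set a list apart. At an unadjusted p under 0.05 (edgeR) were 4 of 18 between P815-IFNG light and dark and 0 of 18 between P815-M light and dark. Over all 18804 genes these numbers were 409 and 510. Between the lines 2 of 18 were in light and 1 of 18 in the dark, against 1276 and 1290 genes. All 18 had a positive log2 fold change between P815-IFNG light and dark, with a median of 1.38 against -0.02 over all genes, and all 18 between P815-M light and dark, with a median of 0.98 against 0.01. The light groups of both lines thus lay on the same side. Their summed level was 3411, 1659 and 4740 CPM in light and 1003 to 1870 CPM in dark P815-IFNG tumors, and 1427 to 1575 CPM in light and 673 to 1274 CPM in dark P815-M tumors. In P815-M the ranges of light and dark did not overlap, and the share of genes with such a gap, higher in light, was not computed. In P815-IFNG the ranges did overlap, but the sum was higher in light in each of the 3 same-numbered pairs (3411 against 1870, 1659 against 1003 and 4740 against 1869 CPM). B2m, the list gene with the highest mean, averaged 1617 ± 1900 CPM in P815-IFNG light and 831 ± 626 CPM in P815-IFNG dark (SD). The sums thus depend heavily on 1 gene.

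Markers of macrophages and skeletal muscle were set beside these genes. All 5 macrophage markers had a positive log2 fold change between P815-M light and dark (median 0.29), and their sum was 786 to 927 CPM in light and 602 to 682 CPM in the dark, without overlap. The share of genes that lay higher in P815-M light without overlap was not computed, and 8.06% of the 18804 genes lay lower. In P815-IFNG 2 of 5 were positive (median -0.04), and the sums of 451 to 827 and 338 to 1174 CPM overlapped. All 5 skeletal muscle markers were negative between P815-IFNG light and dark (median -3.34). Of these 2 had an unadjusted p under 0.05 and 0 were called, as was no gene (0%). Their sums of 115 to 142 CPM in light and 137 to 464 CPM in the dark overlapped. In P815-M 2 of 5 were positive, with sums of 91.4 to 411 and 95.9 to 561 CPM. The part of these markers in the levels of the IFNG-induced genes was not tested.

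Between the lines 17 of 18 were positive in light, with a median of 0.92 against 0.15 over all genes, and 16 of 18 in the dark, with 0.62 against 0.33. Without P815-IFNG light replicate 1 the count between P815-IFNG light and dark was 14 of 18 (median 0.55), and between the lines in light 9 of 18 (median 0.04 against 0.09). The interaction of line and light was positive for 15 of 18 genes over all libraries and for 5 of 18 without that library. Without the 2 deep libraries 18 of 18 were positive in P815-IFNG (median 1.27). B2m, the light chain of class I antigen-presenting molecules, averaged 1617 ± 1900 CPM in P815-IFNG light and 831 ± 626 CPM in P815-IFNG dark tumors. Psmb9, an immunoproteasome subunit gene that lies partly opposite Tap1, had 226 ± 128 and 147 ± 95.6 CPM, and 272 ± 34.2 and 238 ± 32.0 CPM in P815-M light and dark (SD, n = 3). Both overlapped between light and dark in P815-IFNG within their spread.

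Of the 8 genes of IFNG and CXCL10 receptors and signalling, 0 were called in any comparison over all libraries, where at most 0.016% of all genes were. Their medians were -0.12 in P815-IFNG and 0.00 in P815-M between light and dark. Without the deep libraries 1 of the 8 was called higher in P815-IFNG than in P815-M in the dark, where 371 of 16944 genes were called. Jak1, a kinase of the IFNG receptor, had 101 ± 32.1 and 113 ± 26.1 CPM in P815-IFNG light and dark. Socs1, an inhibitor of JAK signalling, had 108 ± 71.7 and 90.0 ± 51.9 CPM. Of the 11 regulators of Ifng transcription, 0 were called either, with medians of -0.13 and -0.04. Among them Runx3, a transcription factor of cytotoxic lymphocytes, had 94.7 ± 7.80 and 98.9 ± 11.4 CPM. Il18rap, a chain of the IL-18 receptor, had 137 ± 151 and 109 ± 73.8 CPM (SD, n = 3).

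T cells and NK cells are the usual sources of endogenous Ifng, so their markers were set beside it. The 8 T cell markers summed to 5.37 to 19.3 CPM in light and 10.6 to 33.8 CPM in dark P815-IFNG tumors, and to 14.8 to 25.5 CPM in light and 8.86 to 26.5 CPM in dark P815-M tumors. The 8 markers of NK cells and cytotoxic lymphocytes summed to 29.3 to 108, 52.6 to 62.7, 58.7 to 95.3 and 31.8 to 54.3 CPM in the same order, without overlap between P815-M light and dark. For that gap too the share over all genes, higher in light, was not computed. P815-IFNG light replicate 1, with the highest Ifng, had 19.3 CPM of T cell markers and 80.0 CPM of NK and cytotoxic markers. The T cell value lay within the range of the other shallow libraries. The NK and cytotoxic value lay above the other shallow P815-IFNG libraries (29.3, 62.7 and 52.6 CPM) and below P815-M light replicate 3 (95.3 CPM). The sums of IFNG-induced genes in that library, 3411 CPM, were second to the deep light library, and the other shallow libraries had at most 1870 CPM. B2m, the gene of that list with the highest mean, weighs heavily in these sums. Of the T cell markers 2 of 8 and of the NK and cytotoxic markers 7 of 8 had a positive log2 fold change between P815-IFNG light and dark, and 1 and 2 of 8 without the deep libraries. None of either list was called between P815-IFNG light and dark, where 0% of all genes were called over all libraries.

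**Figure D4:**
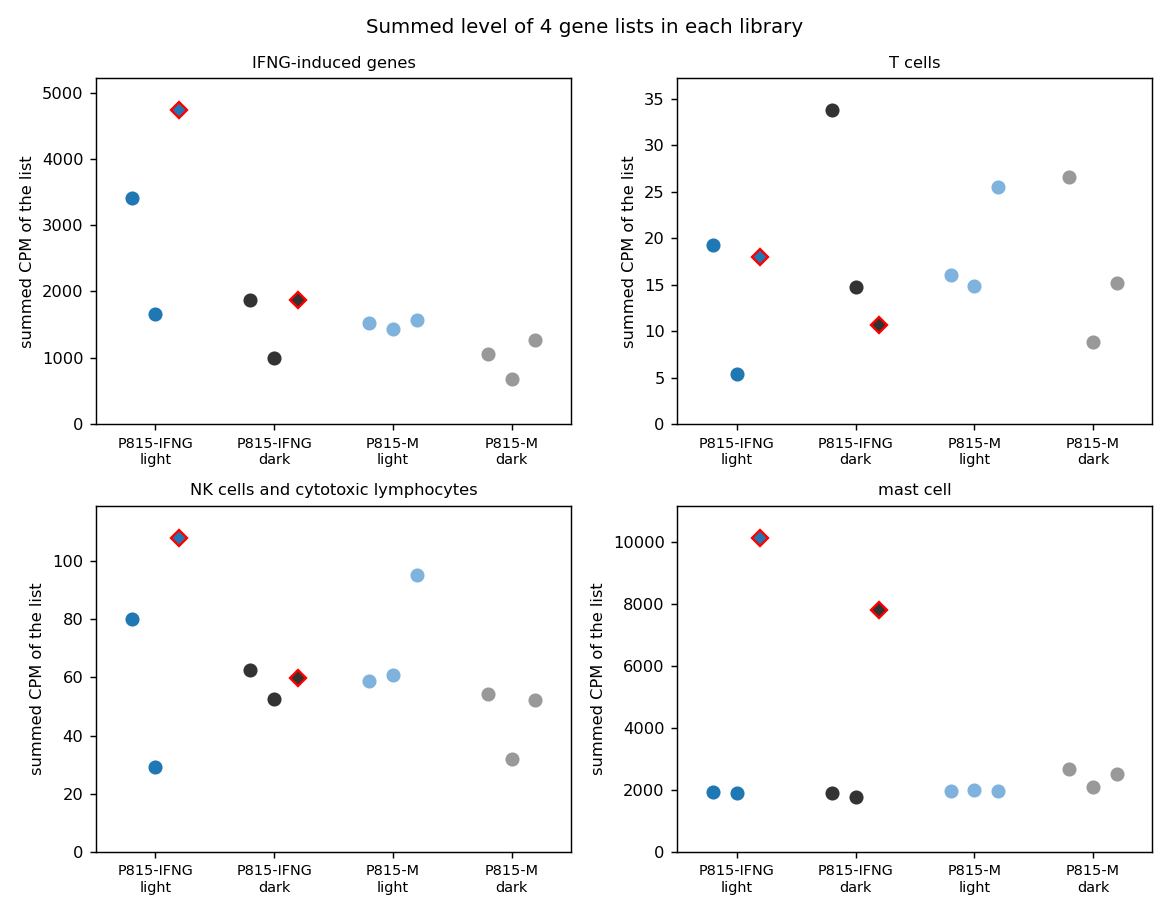
Summed CPM of 4 gene lists in each library on linear axes from 0, by group, with the replicates in order and the deep libraries as red-edged diamonds. IFNG-induced genes reach 3411 and 4740 CPM in P815-IFNG light replicates 1 and 3, and T cell markers overlap among all 4 groups. NK and cytotoxic markers overlap between P815-IFNG light and dark but not between P815-M light and dark. The share of genes with such a gap in P815-M, higher in light, was not computed. Mast cell markers are highest in the 2 deep libraries. The sums of IFNG-induced genes are weighted toward B2m, which has the highest mean of that list.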

How the data were processed

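RNA-seq of 12 single-tumor libraries was used. The authors filtered reads with fastp, aligned them with STAR 2.7.9a to mm10 with the knock-in sequences and annotations added, and counted them with HTSeq 0.13.5 at default parameters; the library kit was stranded, and its match with the strand setting is not given in the sources used here. The deposited values are raw counts per gene symbol, from which mitochondrial genes were not yet removed and which were not yet adjusted with ComBat-seq; the batches of that step are not named.

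Here the 13 mitochondrial rows were removed and the 18804 genes with at least 10 counts over all libraries were fitted with edgeR 4.0.16 (TMM, 1 mean per group over the 12 libraries, quasi-likelihood test, Benjamini-Hochberg adjustment over all genes). A call needed an adjusted p no higher than 0.05 and a log2 fold change of 1 or more in size. Ratios were compared as log2 with a pseudocount of 0.5 by two-sided exact permutation tests. Counting intervals were Poisson or Clopper-Pearson at 95%. Replicates were separate mice. Same-numbered libraries deviated together in P815-IFNG light and dark (r of 0.58, 0.58 and 0.87 over genes, the last being the deep pair), and not in every pair of the other comparisons (-0.18 to 0.16). Deviations were taken from the group mean, into which the deep library enters in both P815-IFNG groups. Depth and a pairing of mice cannot be told apart in these r values, and comparisons by replicate number are descriptive. Alternatives were DESeq2 1.42.0, its size factors, filterByExpr, no filter, mitochondrial rows kept, only the libraries compared, the replicate block, a batch term and ComBat-seq (sva 3.50.0) for the deep libraries, a pseudocount of 1, and libraries left out. The list counts without the deep libraries or P815-IFNG light replicate 1 were added after the data were seen, as were the summed ratios without single libraries and the count of genes with exons on opposite strands (GENCODE M21).

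The members and lists were chosen with earlier results of these data known. Named were the 4 rows, Cxcl10 and Rela as genes that can share sequence with the constructs, the 3 genes most like each row, and the 2 genes of each pathway list with the highest mean CPM; list members named otherwise only show what a list holds. The lengths and sequences of the knock-in rows were not used here. Code was tested on simulated data with R 4.3.3 and Python 3.11.15.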

Additional observations from a re-analysis of the deposited data

How the results depend on the processing

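With 1 library left out, the log2 fold change between P815-IFNG light and dark ran from -0.81 to 0.69 for GAVPO_bla and from -0.40 to 0.70 for mRuby3_luciferase. Between the lines GAVPO_bla ran from 10.50 to 15.90 in light and from 9.02 to 10.98 in the dark, and the reporter in the dark from -0.016 to 1.08. The interaction of line and light for Ifng ran from -0.36 to 1.96, and the cassette per reporter between P815-IFNG light and dark from -0.044 to 1.14. The reporter in P815-IFNG turned positive with DESeq2 (0.060), its size factors (0.061), filterByExpr (0.018), the replicate block (0.073), without the deep libraries (0.46), with a batch term (0.13) and after ComBat-seq (0.19). GAVPO_bla turned to 0.081 and the reporter between the lines in the dark to -0.021 without the deep libraries. With only the libraries compared, GAVPO_bla between the lines had 11.17 in light and 10.02 in the dark and was no longer called. In light the cassette between the lines was called with DESeq2 (5.49), a batch term (8.18) and ComBat-seq (8.17). The cause of these changes was not tested.

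Counts of genes called were 0 between P815-IFNG light and dark (4 with DESeq2, 1 without the deep libraries, 2 with a batch term, 85 after ComBat-seq), 0 between P815-M light and dark (1, 157, 194 and 245, and 244 with only the libraries compared), 3 between the lines in light (41, 39, 82 and 204, and 0; 1 to 4 with 1 library left out), 2 in the dark (38, 371, 290 and 400, and 0; 4 with DESeq2's size factors or filterByExpr; 1 to 2 with 1 library left out), and 0 for the difference in the effect of light (4, 2, 3 and 5). With the replicate block, paired by number, the count in the dark was 7, and the block changed no call of a member. Without P815-IFNG light replicate 1, 9 in place of 17 IFNG-induced genes were higher in P815-IFNG than in P815-M in light. Of 346 values of the 4 rows and their ratios under these settings, 315 kept their direction and, for the rows, their side of the threshold. The ratios were compared by direction only. Some settings cannot move the value, such as the replicate block for the ratios and dropping the minimum fold change for the rows. In the shallow libraries the cassette and Ifng rest on 0 to 37 counts, which limits what can be seen of them.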
